A study of Homo sapiens with 10 samples.

Results

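The transcripts followed here encode the NF-kB subunits and the inhibitors that NF-kB itself induces, 10 genes taken by symbol: NFKB1, NFKB2, RELA, RELB, REL, NFKBIA, NFKBIE, NFKBIZ, TNFAIP3 and BIRC3. All 10 were found, each on 1 row of the deposited long RNA tables, among 55771 gene symbols, and all 10 passed the filter on low counts. By the labels, the cells were BEAS-2B, an immortalised human bronchial epithelial line, grown in serum-supplemented medium. They were made into stable lines under G418 selection with either an empty vector (eV, 2 libraries) or a TAF1C vector (3 libraries). Each vector was built on pCMV6, a plasmid with a constitutive viral promoter. Marker genes, given further on, do not bear out the BEAS-2B label for the eV libraries. TAF1C belongs to SL1, a complex that brings RNA polymerase I to ribosomal RNA genes. The labels give neither the number of clones in a line nor whether replicates were separate cultures, and a p therefore refers to library-to-library spread that may be technical only.

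NF-kB is a family of dimeric transcription factors that sit in the cytoplasm bound to IkB proteins until a signal such as TNF or interleukin 1 leads to IkB degradation. In the canonical branch RELA and p50, the product of NFKB1, enter the nucleus, whereas in the noncanonical branch p100, the product of NFKB2, is processed to p52 and enters with RELB. Several genes of the system are themselves NF-kB targets, so that the inhibitors NFKBIA and TNFAIP3 act as a feedback brake. In bronchial epithelium the pathway is known for driving cytokine and adhesion genes upon infection or injury.

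The sequences before the transcription starts were examined because NF-kB binding sites there are the known basis of this feedback. RefSeq promoter windows (build GRCh38.p14) were matched by symbol for 8 of the 10 genes, RELB and NFKBIE having no entry, and the 250 bases before each start were searched on both strands for the 10-base NF-kB consensus. The consensus was found in 9 of 13 windows (69.2%), compared with 3498 of 35116 windows of all genes (9.96%). A narrower form of it, whose matches are all consensus matches too, was found in 6 of the 13 windows (46.2%) and in 1.4% of all windows. The genes were picked as parts and known targets of NF-kB, so a share above that of all genes could be foreseen. It is therefore not read as a finding of these data. The windows of 1 gene can overlap and are not independent, and a match of letters does not show binding. Windows are given for NFKBIA and TNFAIP3, the classical feedback inhibitors, and for NFKB1 and BIRC3, with the consensus matches in capitals and the last base lying next to the start:
NFKBIA, chr14:35404750-35404999, minus strand: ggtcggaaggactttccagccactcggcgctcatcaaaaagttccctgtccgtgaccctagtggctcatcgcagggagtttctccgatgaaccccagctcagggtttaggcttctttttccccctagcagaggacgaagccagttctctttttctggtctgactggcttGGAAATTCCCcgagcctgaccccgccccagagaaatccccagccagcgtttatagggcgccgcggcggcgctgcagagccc
TNFAIP3, chr6:137867009-137867258, plus strand: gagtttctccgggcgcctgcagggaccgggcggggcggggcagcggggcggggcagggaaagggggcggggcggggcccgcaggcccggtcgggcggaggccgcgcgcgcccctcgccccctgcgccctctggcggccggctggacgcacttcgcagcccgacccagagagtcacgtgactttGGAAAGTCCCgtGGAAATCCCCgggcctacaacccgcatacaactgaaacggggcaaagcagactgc
NFKB1, chr4:102501109-102501358, plus strand: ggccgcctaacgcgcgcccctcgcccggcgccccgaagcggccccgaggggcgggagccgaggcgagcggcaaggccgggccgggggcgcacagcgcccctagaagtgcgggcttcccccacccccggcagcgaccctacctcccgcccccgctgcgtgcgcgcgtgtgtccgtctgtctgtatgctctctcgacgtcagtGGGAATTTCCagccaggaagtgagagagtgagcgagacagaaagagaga
BIRC3, chr11:102317234-102317483, plus strand: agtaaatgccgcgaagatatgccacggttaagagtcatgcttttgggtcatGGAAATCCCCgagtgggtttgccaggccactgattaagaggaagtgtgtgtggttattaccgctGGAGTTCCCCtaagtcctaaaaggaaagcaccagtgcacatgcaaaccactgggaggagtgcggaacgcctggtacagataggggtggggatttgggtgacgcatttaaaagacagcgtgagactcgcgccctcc
NFKBIA held a match 81 to 72 bases before its start, and NFKB1 held one from 49 to 40 bases before its first start. In TNFAIP3 a pair of matches lay side by side, at 67 to 58 and at 55 to 46 bases, and in BIRC3 they lay at 199 to 190 and at 135 to 126 bases. For NFKB2, REL and NFKBIZ the 30 bases around a match are shown, to set a site of REL, whose transcript was not called raised, beside sites of genes whose transcripts were:
NFKB2, the second start, chr10:102394461-102394490, plus strand: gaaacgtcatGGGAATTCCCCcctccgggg
NFKB2, the third start, chr10:102395674-102395703, plus strand: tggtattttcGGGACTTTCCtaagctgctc
REL, chr2:60881517-60881546, plus strand: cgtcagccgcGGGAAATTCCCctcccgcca
NFKBIZ, the first start, chr3:101827757-101827786, plus strand: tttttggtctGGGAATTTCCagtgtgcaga
The capital stretches of NFKB2 before its second start and of REL are 11 bases long because matches on opposite strands overlap there, 3 in NFKB2 and 2 in REL. RELA had 2 windows with no match, and neither did the second start of NFKB1 or the first of NFKB2 have one, which says only that these letters were not there. Among other genes of the pathway, from the lists described further on, 36 of 148 windows (24.3%) held the consensus.

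**Figure D1:**
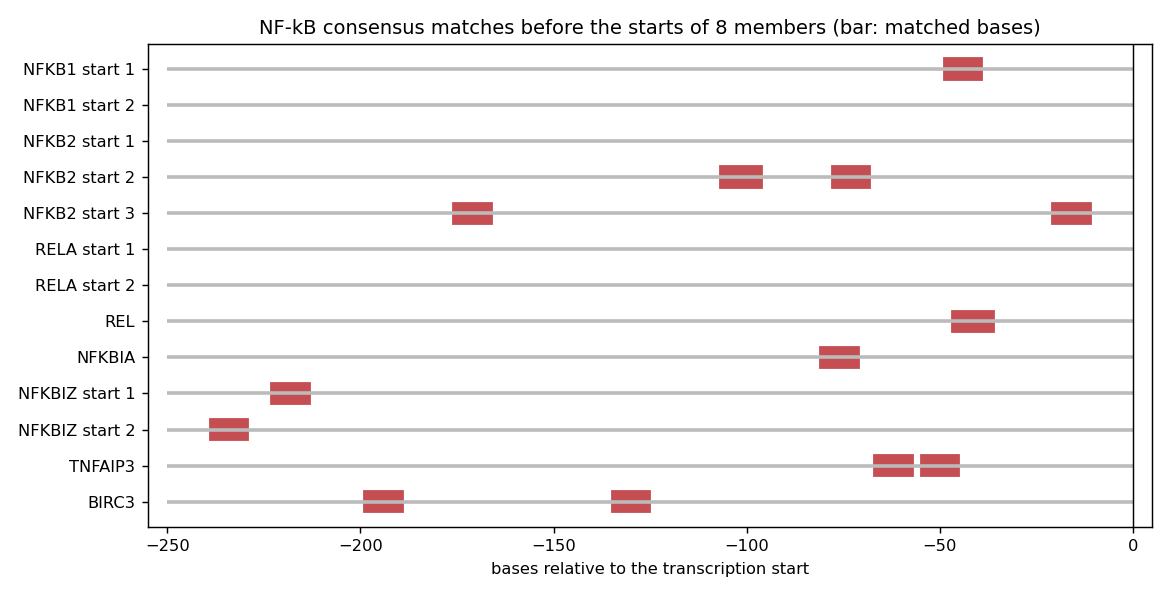
Positions of NF-kB consensus matches (red bars) in the 250 bases before each start of 8 genes, with the distance to the start in bases on the x axis and 1 window per line. Matches stand in 9 of the 13 windows, and the windows of RELA hold none.

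Depth was 22809601 and 28476151 gene counts in the eV libraries, and 34212883 to 37533366 in the TAF1C ones. The TAF1C transcript was at 64.4 and 77.7 CPM with eV (counts relative to library size, with TMM scaling). Libraries labelled TAF1C had it at 64.0, 59.0 and 67.0 CPM, and thus not higher. Its log2 fold change was -0.17 ± 0.13 (SE), at an adjusted p of 0.353 by edgeR. Over 12 alternatives of processing it ran from -0.38 to -0.06, and scaling by library totals called it lower (edgeR adjusted p = 0.0316). Without eV replicate 1 it was -0.36, nearly as low as with library totals. Its level therefore does not bear out the labels, and the groups are named by them. The eV libraries stood apart in their content. A list of 12 photoreceptor and retinal genes, with CRX and OTX2, summed to between 1839 and 2159 CPM in them and to between 13.8 and 19.1 CPM in the libraries labelled TAF1C, and 11 of 11 tested genes of the list were lower in the latter. Of 11 bronchial epithelial markers, KRT7, KRT8, KRT18, ITGA6, LAMB3 and VIM rose and EPCAM fell among 9 tested, and their sum ran from 518 to 544 CPM with eV and from 1745 to 1826 CPM with TAF1C. In the eV libraries the photoreceptor sum thus lay above the bronchial sum, which does not bear out the label of a bronchial line for them. The identity of these cells was not tested. KRT5 and TP63, which define basal airway cells, were at most 1.90 CPM, and CDH1, the epithelial cadherin, at most 2.97 CPM in every library. Haematopoietic markers, of cells rich in NF-kB, summed to between 39.3 and 57.2 CPM with eV and between 32.8 and 38.4 CPM with TAF1C, mostly from HBB, the 1 of 5 tested genes that passed, as lower. The sums were 10.3 to 69.4 against 26.2 to 27.0 CPM for endothelial markers, 45.6 to 95.1 against 31.7 to 47.8 CPM for fibroblast markers and 13.3 to 23.1 against 8.41 to 10.7 CPM for differentiated airway markers. No found gene of any marker list was at 0 in all libraries.

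The comparison asked whether these transcripts differ between TAF1C and empty vector lines. With TAF1C 9 of the 10 transcripts were raised, and 1, REL, did not pass the test (edgeR quasi-likelihood with Benjamini-Hochberg adjustment over 18402 genes). The 9 rises ran from 1.49-fold for RELA to 3.38-fold for TNFAIP3. Of all tested genes, 15.9% were raised and 22.6% lowered, 38.5% in all. Without eV replicate 1, 9 of the 10 were raised (29.0% of all tested genes) and 1, REL, was lowered (29.5%). Without eV replicate 2, 9 were raised (35.8%) and 0 lowered (34.0%). The median log2 fold change was 1.12 over the 10 genes and -0.10 over all tested genes. In 9 of the 10 every TAF1C library lay above both eV libraries, against 29.8% of all tested genes. In the main edgeR fit, of all 5 libraries with TMM scaling, none of the 10 was lowered, with 0 at an unadjusted p under 0.05. DESeq2 lowered 0. In bulk RNA, fewer cells of a type and less RNA per cell cannot be told apart, and the part of the photoreceptor and bronchial markers in these rises was not tested.

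**Figure D2:**
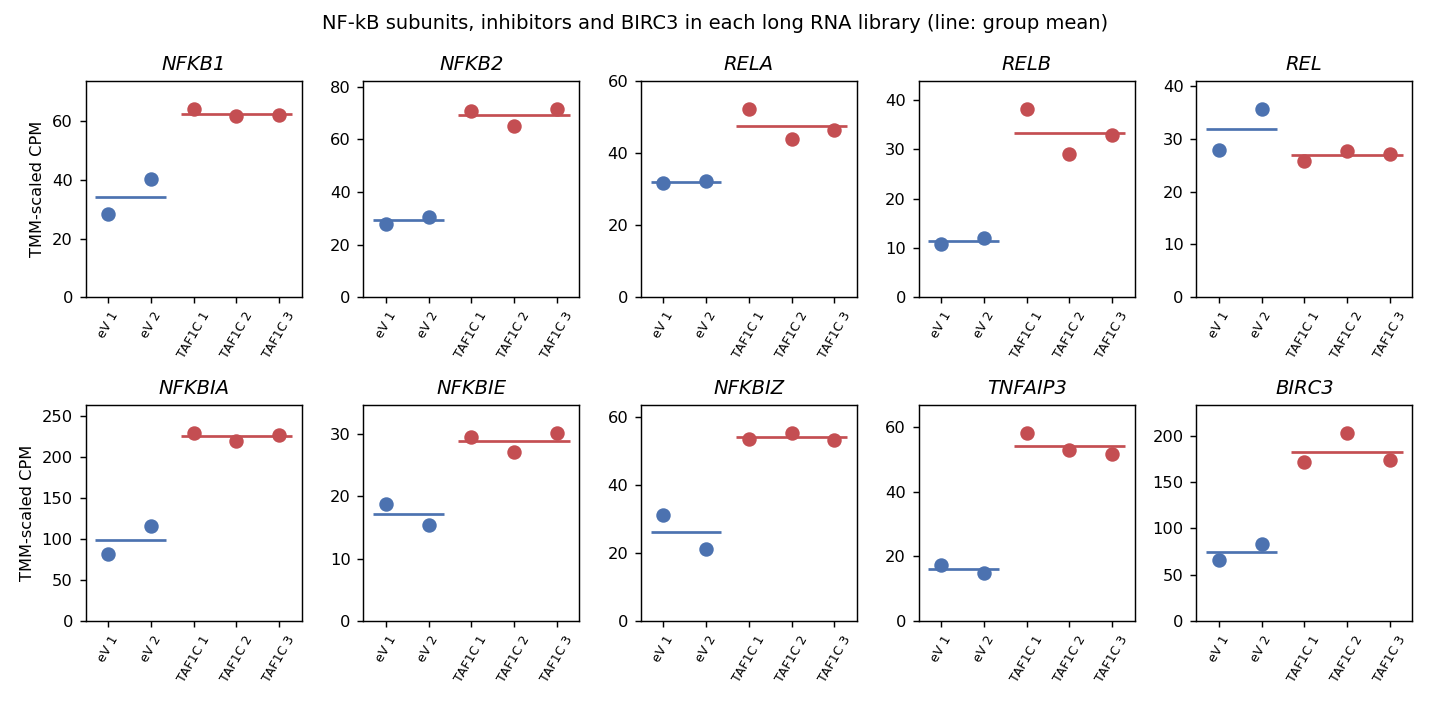
Normalised level (TMM-scaled CPM, y axis from 0) of each of the 10 genes in each long RNA library, with eV in blue, TAF1C in red and a line at each group mean. The 3 TAF1C libraries lie above both eV libraries for 9 genes, and for REL they lie just below.

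Among the subunits, the noncanonical pair had the largest fold changes. NFKB2, the precursor of p52, was at 27.9 and 30.5 CPM with eV and at 70.9, 65.2 and 71.4 CPM with TAF1C. Its log2 fold change was 1.24 ± 0.12 (SE), at an adjusted p of 0.00128 by edgeR, and the groups lay far apart beside the narrow spread within each. RELB, the partner of p52, stood at 10.7 and 12.1 CPM with eV against 38.2, 29.2 and 32.9 CPM with TAF1C. It was 2.93-fold higher, a log2 fold change of 1.55 ± 0.18 (SE), at an adjusted p of 0.00234 by edgeR, although TAF1C replicate 1 exceeded replicate 2 by 1.31-fold, the widest spread of the 10 genes within that group. Both calls held under all 12 alternatives tried.

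The canonical subunits had smaller fold changes, but the difference between NFKB1 and NFKB2 was not tested. Without eV replicate 2 their log2 fold changes were 1.109 and 1.275, and without eV replicate 1 they were 0.57 and 1.114. NFKB1, which encodes p105 and p50, was at 28.4 and 40.2 CPM in the eV libraries and at 64.1, 61.7 and 62.0 CPM in those labelled TAF1C, a log2 fold change of 0.87 ± 0.17 (SE), at an adjusted p of 0.0132 by edgeR. Its eV libraries differed 1.42-fold, so the rise was 0.57 without eV replicate 1 and 1.11 without replicate 2 on the log2 scale. The call was lost when any TAF1C library was left out (edgeR adjusted p 0.0588 to 0.0624). RELA, the main activating subunit, was at 31.6 and 32.2 CPM against 52.2, 43.9 and 46.4 CPM. With a log2 fold change of 0.58 ± 0.13 (SE), at an adjusted p of 0.0184 by edgeR, RELA was the smallest rise, and 6 of 12 alternatives did not call it: each one without a TAF1C library, library totals, no filter and the replicate block. REL, a subunit best known from lymphoid cells, was at 27.99 and 35.65 CPM with eV and at 25.75, 27.71 and 27.24 CPM with TAF1C. Its TAF1C libraries were all lower, as in 34.4% of tested genes, but TAF1C replicate 2 and eV replicate 1 were nearly level, and its log2 fold change was -0.24 ± 0.15 (SE), at an adjusted p of 0.251 by edgeR. REL was called lower with scaling by library totals (-0.45, edgeR adjusted p = 0.0299) and without eV replicate 1 (-0.47, adjusted p = 0.00044). The latter fit takes its spread from the TAF1C libraries, which differ less from each other (SD of log2 differences over genes 0.383 to 0.416) than the eV libraries do (1.08), and its p may be too small.

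The same counts were also expressed as shares of the subunit transcripts, which restates the fold changes above. NFKB2 and RELB together held 30.6% and 28.3% of the counts of the 5 subunits with eV and 43.4%, 41.4% and 43.5% with TAF1C. REL held 22.1% and 23.7% with eV against 10.3%, 12.2% and 11.4% with TAF1C. The share of NFKB1 overlapped between the groups (22.4% and 26.7% against 25.5%, 27.1% and 25.8%), whereas that of RELA was slightly lower with TAF1C (24.9% and 21.3% against 20.8%, 19.3% and 19.3%). These shares do not depend on the scaling of the libraries, and they are not corrected for transcript length, so they compare libraries and not genes.

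All of the inhibitors rose. NFKBIA encodes IkB-alpha, which retains NF-kB in the cytoplasm and is resynthesised once NF-kB is active. It was at 81.3 and 116 CPM in the eV libraries and at 229.8, 219.5 and 227 CPM in those labelled TAF1C. NFKBIA was 2.29-fold higher, a log2 fold change of 1.19 ± 0.18 (SE), at an adjusted p of 0.00526 by edgeR, and ranged from 0.90 without eV replicate 1 to 1.44 without eV replicate 2. TNFAIP3 encodes A20, a ubiquitin-editing enzyme that shuts off signalling from TNF and interleukin 1 receptors. It stood at 17.21 and 14.96 CPM with eV and at 58.2, 52.97 and 51.7 CPM with TAF1C. With a log2 fold change of 1.75 ± 0.14 (SE), at an adjusted p of 0.000752 by edgeR, TNFAIP3 was the largest rise of the 10, and 1.5% of all tested genes had a larger log2 fold change. Both inhibitors kept their calls under all 12 alternatives.

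NFKBIZ encodes the nuclear IkB-zeta, which binds NF-kB on selected promoters and can also act as a co-activator. It was at 31.3 and 21.3 CPM in the eV libraries and at 53.6, 55.4 and 53.3 CPM in the others, a log2 fold change of 1.04 ± 0.19 (SE), at an adjusted p of 0.00949 by edgeR. Its rise was 0.76 without eV replicate 2 and 1.28 without eV replicate 1, and it was not called with library totals (edgeR adjusted p = 0.0524) or without TAF1C replicate 2 (0.0545). NFKBIE encodes IkB-epsilon, a slower cytoplasmic inhibitor. It was at 18.8 and 15.4 CPM against 29.5, 27.1 and 30.2 CPM, a log2 fold change of 0.76 ± 0.16 (SE), at an adjusted p of 0.0147 by edgeR. This call was lost with library totals, with the replicate block and without any 1 TAF1C library (edgeR adjusted p 0.0595 to 0.113). Counted together, the transcripts of these 4 inhibitors numbered 1.17 and 1.11 per subunit count with eV and 1.48, 1.56 and 1.51 with TAF1C. NFKBIA counts per RELA count were 2.57 and 3.60 with eV against 4.4, 5.0 and 4.9 with TAF1C. Both ratios restate the fold changes above, and how often such ratios separate the groups over all genes was not computed.

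BIRC3, the ubiquitin ligase cIAP2 that restrains cell death and noncanonical signalling and is a standard NF-kB target, was at 65.3 and 82.8 CPM in the eV libraries and at 171.6, 203 and 173 CPM in those labelled TAF1C. Its log2 fold change was 1.30 ± 0.16 (SE), at an adjusted p of 0.00287 by edgeR, called under all 12 alternatives. BIRC2, the closely related cIAP1 next to it on the chromosome, went from 54.1 and 63.3 CPM to 144.9, 155.2 and 139.7 CPM, a log2 fold change of 1.32 ± 0.13 (SE), at an adjusted p of 0.00134 by edgeR. The BIRC3 to BIRC2 count ratio overlapped between the groups, at 1.21 and 1.31 with eV and 1.18, 1.31 and 1.24 with TAF1C. The counting of reads shared by these related genes is not given.

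Ordered by log2 fold change, the genes ran TNFAIP3, RELB, BIRC3, NFKB2, NFKBIA, NFKBIZ, NFKB1, NFKBIE, RELA and REL. In 8 of the 9 neighbouring pairs the gap was within 2 combined standard errors, from 0.05 between NFKB2 and NFKBIA to 0.25 between RELB and BIRC3. The gap of 0.82 between RELA and REL, with a combined standard error of 0.20, was wider. The direction of the eV spread also differed among the genes. NFKBIA and NFKB1 were 1.42-fold higher in eV replicate 2 than in replicate 1, REL and BIRC3 1.27-fold higher, and NFKBIZ stood at 0.68 of its level in replicate 1. The 5 genes called under every setting were NFKB2, RELB, NFKBIA, TNFAIP3 and BIRC3.

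**Figure D3:**
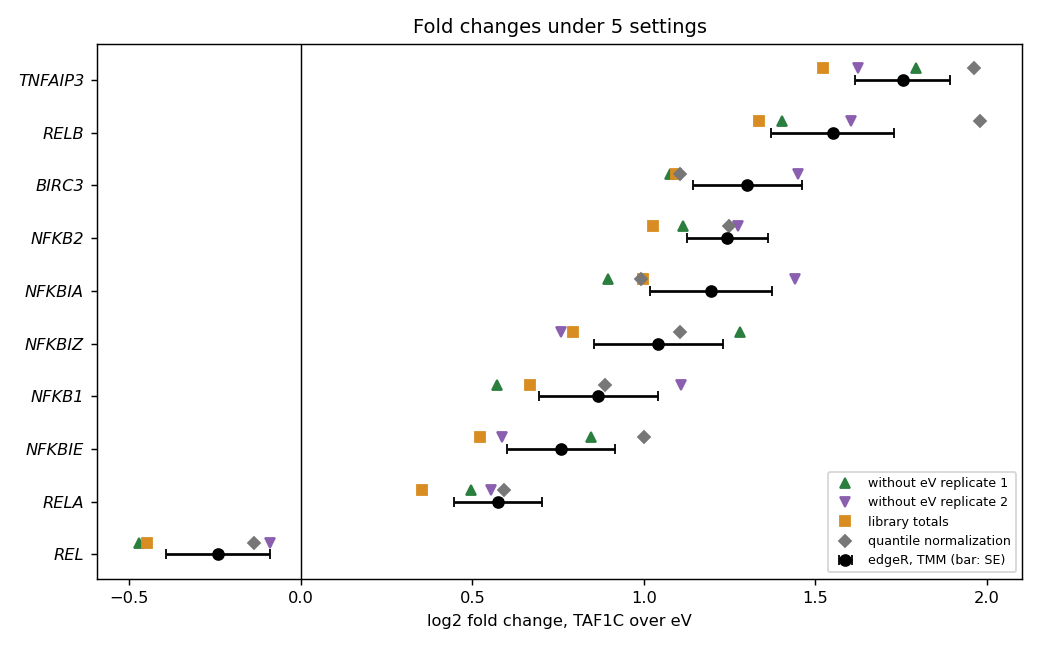
log2 fold change (TAF1C over eV, x axis) of each gene from edgeR with TMM scaling (black, bar: SE) and under 4 alternatives. All 9 raised genes stay above 0 under each setting drawn, and REL stays below 0.

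The level of these genes was also set against the 11 bronchial epithelial markers, a scale chosen after the data had been seen. Per 1000 counts of the summed markers, NFKBIA stood at 156.9 and 212.8 with eV and at 125.8, 125.8 and 124.7 with TAF1C. TNFAIP3 was at 33.2 and 27.5 with eV and at 31.9, 30.4 and 28.4 with TAF1C, and RELB overlapped likewise. The other 8 genes were lower in every TAF1C library on this scale, but so were 94.1% of all tested genes, and 0.804% were higher in every one, because the summed markers themselves are higher with TAF1C. Nothing about the 10 genes is therefore read from it. KRT7, a keratin of simple epithelia, held the most counts of these markers, with a log2 fold change of 2.13 ± 0.16 (SE), at an adjusted p of 0.000626 by edgeR, larger than that of each of the 10 genes.

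Other genes of the pathway were taken from 9 lists of 114 genes, of which 98 were tested. The lists were drawn up with earlier results of these data known, so the counts from them are not read as support. Of these, 47 rose, or 46 of 97 without CSF2, which passed the filter only through TAF1C libraries, and 7 fell (15.9% and 22.6% of all tested genes did), with a median log2 fold change of 0.55 beside -0.10 over all tested genes. With 1 library left out, 30 to 65 rose and 3 to 14 fell. Among ligands, 1 of 6 tested genes rose, IL1A, the alarm cytokine interleukin 1 alpha, from 3.98 and 3.20 CPM to 14.3, 15.3 and 12.1 CPM (log2 fold change 1.95 ± 0.24 (SE), adjusted p of 0.00291 by edgeR). TNF, LTA and LTB were listed at 0 in every library, as was TAP1, and HLA-B, which most cells express, was at 5.72 CPM or less. These genes lie in the major histocompatibility region, so their values are not read as absence.

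Receptors and adaptors formed the largest list, with 13 of 26 tested genes raised and 4 lowered (leaving out 1 library gave 10 to 18 and 1 to 7). Of all tested genes 15.9% were raised and 22.6% lowered, so the 4 lowered genes are not read as a result about the list. TLR4, the receptor for bacterial lipopolysaccharide, went from 25.1 and 26.4 CPM to 115, 133.8 and 118 CPM, a log2 fold change of 2.25 ± 0.13 (SE), at an adjusted p of 0.000332 by edgeR. TNFRSF12A, the receptor for TWEAK and an activator of the noncanonical branch, had a log2 fold change of 2.23 ± 0.15 (SE). IL1R1, which binds interleukin 1, rose by 1.90 ± 0.13 (SE). The 4 lowered genes, named after their values were seen, were TRAF5 (-1.64 ± 0.16 (SE)), TNFRSF11A (-2.17 ± 0.53), TNFRSF21 (-0.96 ± 0.15) and MALT1 (-0.62 ± 0.16). TNFRSF11A was at 3.46 and 10.4 CPM in the eV libraries, a 3.02-fold difference, and its log2 fold change ran from -2.83 to -1.09 over the alternatives. The calls held under 7 of 12 alternatives for TNFRSF11A, 6 for MALT1 and 10 for TNFRSF21, and the losses include leaving out any 1 TAF1C library for TNFRSF11A and MALT1, and leaving out replicate 3 for TNFRSF21. TRAF5, an adaptor of TNF receptors, was called under all 12, and its level was 41.8 ± 5.66 CPM (SD, n = 2) with eV and 13.4 ± 1.23 CPM (SD, n = 3) with TAF1C.

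Of 11 kinases 3 rose and 8 did not pass, with a median log2 fold change of 0.23 (leaving out 1 library gave 1 to 6 raised and 0 to 3 lowered). Beside 15.9% of all tested genes raised, 3 of 11 is a small count and is not read as a result about kinases. IKBKE, an IKK-related kinase that is itself inducible, rose by 1.04 ± 0.15 (SE), at an adjusted p of 0.00434 by edgeR. MAP3K14, the NIK kinase that starts the noncanonical branch, rose by 0.69 ± 0.14 (SE), at an adjusted p of 0.0148 by edgeR, a call lost with library totals, with the replicate block and without TAF1C replicate 1 or 3. MAP3K7, which encodes the TAK1 kinase, had a log2 fold change of 0.42 ± 0.11 (SE), at an adjusted p of 0.0324 by edgeR and missed the threshold under 7 alternatives. CHUK, IKBKB and IKBKG, the subunits of the IKK complex, did not pass, with log2 fold changes of 0.24, -0.15 and 0.34.

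Further brakes and IkB proteins were among the raised genes. Of 17 tested ubiquitin editors and other brakes, 11 rose and 6 did not pass, with a median log2 fold change of 0.55 (5 to 14 raised with 1 library left out). ZC3H12A, the ribonuclease regnase 1 that degrades inflammatory mRNAs, went from 11.6 and 15.1 CPM to 60.4, 55.2 and 55.4 CPM (log2 fold change 2.09 ± 0.17 (SE), adjusted p of 0.000779 by edgeR). TNIP1, a partner of A20, rose by 1.26 ± 0.12 (SE), and IRAK3, an inhibitory member of the IRAK family, by 1.05 ± 0.12 (SE). Of 5 other IkB proteins and regulators 2 rose, a small count beside 15.9% of all tested genes. They were NFKBIB, which encodes IkB-beta (1.04 ± 0.20 (SE)), and BCL3, a nuclear IkB protein (1.02 ± 0.21 (SE)). Each of these 2 calls was lost without any 1 TAF1C library, and that of BCL3 also with the replicate block (adjusted p of 0.137 by edgeR).

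Among known target genes, 4 of 5 tested adhesion and surface genes rose, where 15.9% of all tested genes did. Of 9 tested cytokine genes that reached 1 CPM in an eV library 8 rose, beside the same 15.9%, with a median log2 fold change of 2.51. Both lists were drawn up with earlier results of these data known, and their counts are not read as support. ICAM1, an adhesion molecule for leukocytes, went from 20.9 and 19.3 CPM to 54.8, 53.4 and 57.1 CPM, a log2 fold change of 1.46 ± 0.12 (SE), at an adjusted p of 0.000818 by edgeR. CD44, a hyaluronan receptor, rose by 2.02 ± 0.12 (SE), and PVR, the poliovirus receptor, by 0.90 ± 0.10 (SE). The chemokines and growth factors CXCL5, CXCL3 and CSF3 had log2 fold changes of 4.41, 3.66 and 3.62. A further cytokine gene, CSF2, at 0.297 and 0.284 CPM with eV and 1.14 ± 0.349 CPM (SD, n = 3) with TAF1C, passed the filter on low counts only through TAF1C replicates 1 and 2, where it was high. Its call (adjusted p of 0.0273 by edgeR) is therefore left out of the cytokine count and is not read as a result. Of 9 tested survival and stress targets 2 rose and 1 fell, where 15.9% and 22.6% of all tested genes did. These counts are not read as a result about the list. GADD45B, a stress sensor, rose by 1.67 ± 0.14 (SE) and the mitochondrial superoxide dismutase SOD2 by 1.29 ± 0.13 (SE). The kinase gene PIM1 fell, at -1.28 ± 0.12 (SE). Of 9 transcriptional partners 2 rose and 2 fell, shares near those of all tested genes (15.9% and 22.6%). They were HDAC3 (0.69 ± 0.11 (SE)) and RPS3 (1.40 ± 0.26), and the paired acetyltransferase genes EP300 (-0.95 ± 0.12) and CREBBP (-0.65 ± 0.16), the last named after its value was seen. HDAC3 lost its call with the replicate block, RPS3 with the block and without any 1 TAF1C library, and CREBBP with these and with no filter, whereas EP300 kept it under all 12 alternatives. The part of the photoreceptor and bronchial markers, which moved with the same groups, in these counts was not tested.

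**Figure D4:**
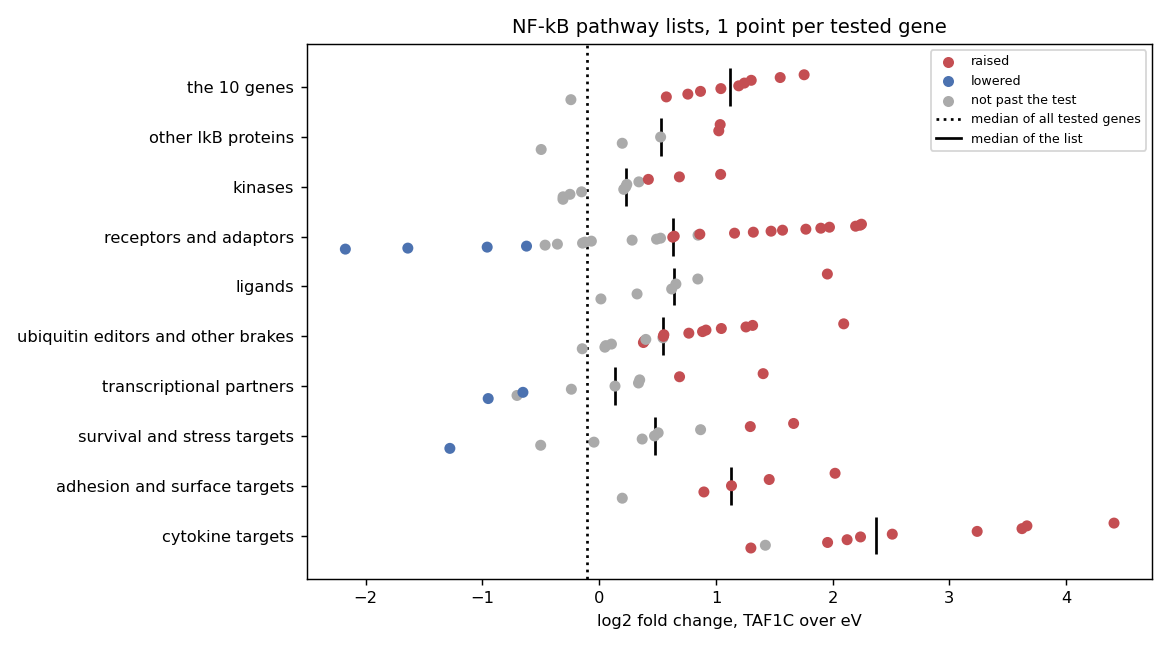
log2 fold change (TAF1C over eV, x axis) of each tested gene of the 10 and of 9 NF-kB pathway lists, red where raised, blue where lowered and grey where not past the edgeR test. The black ticks mark list medians, 1.12 for the 10 genes and 0.23 for the kinases, and the dotted line marks the median of all tested genes at -0.10.

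The profile of these genes over the 5 libraries was shared by many others. The median log2 CPM of the 10 genes, centred on the mean of the libraries, was -0.80 and -0.61 in the eV libraries and 0.43, 0.42 and 0.43 in those labelled TAF1C. Of 12181 other genes with a mean of at least 5 CPM, the 5 with the smallest root mean square difference from that profile were RELT (0.0313), AHCYL1 (0.0359), ZFP36L2 (0.0365), ACO1 (0.0371) and CTTN (0.0377). RELT, a member of the TNF receptor family, was at 25.6 and 28.7 CPM with eV and at 59.1, 57.4 and 58.9 CPM with TAF1C. NFKB2 was the closest of the 10 to their median, at 0.0779, with 95 other genes closer than it. NFKBIA (0.115) and BIRC3 (0.136) came next, while REL, at 0.669, had 7675 other genes closer to the median profile.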

How the data were processed

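Long RNA was sequenced from 2 eV and 3 TAF1C libraries after depletion of ribosomal RNA, with NEBNext Ultra kits, per the labels' protocols. The deposited tables hold raw counts of the authors for 57773 Ensembl rows, which are whole numbers. The submitters' processing notes name hg19, and as tools DESeq2, HISAT2, Cufflinks 2.2.1, Bowtie2 2.2.4 and Trimmomatic 0.36. Their roles, the annotation, the strand setting and the treatment of reads that match several genes are not given in the sources used here, so antisense and related genes may share reads. The small RNA tables were not used here.

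Rows with the same symbol (236 symbols) were summed, and 2 listed genes, CXCL8 and OTULIN, were matched by Ensembl ID, while PECAM1 was not matched. The main test was edgeR's quasi-likelihood test (version 4.0.16, R 4.3.3), two-sided, with TMM scaling and no covariate, for 18402 genes with at least 1 CPM in at least 2 libraries, and p were adjusted by Benjamini-Hochberg over all of them at 0.05. The SE of a log2 fold change is its size divided by the root of the F statistic. Values in CPM use the same scaling, and log2 CPM a prior count of 2. Alternatives were RLE factors, library totals, limma 3.58.1 on quantile-normalized values, DESeq2 1.42.0, no filter, robust dispersion, the replicate block and leaving out each library. The scripts were tested on simulated data with the same spread in both groups, which does not test the fits under the unequal spread seen here. Depth sets the precision: the least counted of the 10 genes, RELB, had 289 counts in eV replicate 1.

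The 10 genes, the pathway and marker lists and the tests were chosen with earlier results of these data known. From each pathway list the 3 changed genes with the smallest adjusted p were named, and changed genes at or under 1 CPM in every library of a group. Likeness was the root mean square difference of centred log2 CPM over 5 libraries. Promoter windows came from RefSeq, and the 50 bases after each start were left out. A search of protein motifs that had been planned was not run. Python 3.11.15, matplotlib 3.10.9 and pandas 2.3.3 were used for the rest.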

Additional observations from a re-analysis of the deposited data

How the results depend on the processing

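Over 12 alternatives for each of the 10 genes (120 values), 0 reversed, 102 kept their side of the threshold, 16 lost the call and 2, both for REL, gained one. NFKB2, RELB, NFKBIA, TNFAIP3 and BIRC3 lost none. The number of the 10 raised was 9, with 6 under library totals, 8 with no filter and 5 to 9 with 1 library left out. The 5 was without TAF1C replicate 2. The number lowered was 0, with 1 (REL) under library totals and 0 to 1 with 1 library left out. Pathway genes raised (47) ran from 30 to 65 and lowered (7) from 3 to 14 with 1 library left out. Over all genes, 2922 rose and 4158 fell. With no filter 1817 rose, and with 1 library left out 1058 to 5967 rose and 1960 to 5665 fell. The fits with 1 eV library assume that it varies like the TAF1C libraries. The SD of log2 differences over genes was however 1.08 between the eV libraries and 0.383 to 0.416 between TAF1C libraries. The p of these fits may therefore be too small. The main fit also takes 1 spread per gene for both groups, and eV has fewer libraries. Its p and SE may thus be too small as well. The causes of these shifts were not tested. The raised share of calls was 41.3%, 31.1% with library totals, 59.6% with quantile normalization and 29.7% with no filter. The median log2 fold change of all genes was -0.10, -0.33 with library totals and 0.22 with quantile normalization. Named pathway genes gave 298 values, of which 273 kept their side, 25 lost the call and 0 reversed.

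The labels give both groups the numbers 1 and 2, but nothing says that a number marks a shared culture or day. The deviations of same-numbered libraries from their group means correlated at 0.0427 and 0.135. With the replicate block, 7 of the 10 genes were raised and 0 lowered, RELA and NFKBIE losing their calls, and 32 pathway genes rose and 3 fell. Over all genes 1425 rose and 2662 fell with the block.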
